A study of Homo sapiens with 16 samples.

Results

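Box H/ACA and Cajal body RNA genes were taken from the RefSeq table of hg38 as all genes other than pseudogenes whose symbol starts with SNORA or SCARNA followed by a number. The rule found 211 genes of 42624 on chromosomes 1 to 22, X and Y, and the other 42413 genes served as background. Of the 211, 182 were SNORA genes, with a median length of 134 bp, and 29 were SCARNA genes, with a median length of 148 bp. A gene was counted as having a peak in a list when the summit of at least 1 peak stood no more than 1 kb from its start or end.

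Binding was measured by ChIP-seq, which sequences the DNA precipitated with a protein, in the established line HEK293T from human embryonic kidney, labelled wild type. HDGF, a chromatin protein with a PWWP domain, was precipitated from cells that received a control depletion and from cells starved in medium without glucose for 24 h. INTS13 belongs to Integrator, which cleaves nascent RNA, and was precipitated under the same control and starvation conditions and also from cells in which specific siPOOLs had depleted HDGF for 72 h. The stated question was whether INTS13 changes its place on the genome under starvation or without HDGF. Each of the 5 groups had 2 labelled replicates but a single list of peaks, so values have no replicate error and no test between conditions could be made. HDGF was not precipitated from the depleted cells, so the lists give no measure of the depletion. Both HDGF groups used 1 antibody. For INTS13, a Bethyl Laboratories antibody was used in control and HDGF-depleted cells and a Proteintech one in starved cells, so for INTS13 the effects of antibody and of starvation cannot be told apart.

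Box H/ACA RNAs fold into hairpins that guide the conversion of uridine to pseudouridine in ribosomal and spliceosomal RNAs, and their name comes from a hinge box and an ACA box near the end of the RNA. They are bound by dyskerin (DKC1), NOP10, NHP2 and GAR1. Cajal body RNAs carry signals that bring them into Cajal bodies, where they guide modification of spliceosomal RNAs, and some of them are of the box C/D or of a mixed type, so SCARNA genes are not all H/ACA genes. In human cells nearly all of these RNAs are cut out of the introns of host genes and need no promoter of their own. Integrator is best known for ending the transcripts of spliceosomal RNA genes, which do have their own promoters.

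The sequence that names the class could be read where a RefSeq microRNA hairpin overlapped a member. Of 7 such members, 5 had a hairpin that reached the last bases of the member, and in all 5 the letters ACA stood 3 bases before its end. The 3 of these with an HDGF peak in control cells are given here, with that ACA in capitals. The SCARNA16 hairpin (MIR6516) lay at chr17:77089417-77089497 on the plus strand, the SNORA84 hairpin (MIR3651) at chr9:92292458-92292547 on the minus strand and the SNORA36A hairpin (MIR664B) at chrX:154768596-154768656 on the plus strand, all in RefSeq coordinates of GRCh38.
SCARNA16: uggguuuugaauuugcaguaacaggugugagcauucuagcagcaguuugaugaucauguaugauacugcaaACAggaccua
SNORA84: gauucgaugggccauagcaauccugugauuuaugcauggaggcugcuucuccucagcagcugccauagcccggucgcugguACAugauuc
SNORA36A: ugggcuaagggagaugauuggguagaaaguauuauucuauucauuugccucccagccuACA

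Of the 211 members, 192 lay whole inside a host gene, and the 158 hosts had a median length of 41499.5 bp. The members themselves have no entry among the RefSeq promoter windows, so the promoters that can be shown are those of their hosts. SNHG12, a non-coding snoRNA host, and TOMM20, which encodes an import receptor of the mitochondrial outer membrane, are shown because peaks reached into their windows and because they hold SNORA16A, the member found in all 5 lists, and SNORA14B, one of the 9 found in 4. The SNHG12 window, chr1:28581824-28582123 on the minus strand of GRCh38, was overlapped by peaks of HDGF in starvation and of INTS13 after HDGF depletion and in starvation. The TOMM20 window, chr1:235128788-235129087 on the minus strand, was overlapped by an INTS13 peak after HDGF depletion. Each runs 5′ to 3′ from 250 bases before the start of transcription, and capitals mark the first 5 transcribed bases.
SNHG12: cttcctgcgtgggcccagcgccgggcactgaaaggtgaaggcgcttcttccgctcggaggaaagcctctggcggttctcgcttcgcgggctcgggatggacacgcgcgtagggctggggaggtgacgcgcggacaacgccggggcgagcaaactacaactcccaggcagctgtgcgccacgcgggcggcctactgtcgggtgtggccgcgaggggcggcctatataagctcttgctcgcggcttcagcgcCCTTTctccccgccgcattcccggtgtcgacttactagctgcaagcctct
TOMM20: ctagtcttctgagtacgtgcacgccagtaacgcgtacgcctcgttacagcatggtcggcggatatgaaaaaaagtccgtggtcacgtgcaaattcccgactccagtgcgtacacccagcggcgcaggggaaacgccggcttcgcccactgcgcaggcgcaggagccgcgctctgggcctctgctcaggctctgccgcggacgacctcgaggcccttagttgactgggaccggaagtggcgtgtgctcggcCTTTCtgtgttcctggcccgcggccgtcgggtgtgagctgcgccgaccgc

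Both start with C followed by 4 pyrimidines, the form of start known from genes of ribosomal proteins and translation factors. That form was present in 27 of 186 windows of hosts (14.5%), in 8 of the 13 windows of ribosomal protein hosts (61.5%) and in 4.07% of all 35116 windows. On either strand, the octamer ATTTGCAT, part of the upstream element of spliceosomal RNA promoters, was found in 1.61% of host windows and 1.77% of all windows, and the ZNF143 core ACTACAA in 3.23% and 2.77%. The GC box GGGCGG was found in 66.1% of host windows and 45.0% of all windows, and TATAAA in 6.45% and 11.5%. SNHG12 held the ZNF143 core and the GC box. These are matches of letters and not shown sites of binding.

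The 5 deposited lists held between 15646 peaks (INTS13 in starvation) and 106697 peaks (HDGF in control cells), and the counts of members with a peak move with these lengths. Read totals of the libraries were not used here. Folds are the authors' values at the summit, over background, and describe peaks within a list only. The median fold of peaks near the members was 2.86 in HDGF control, 2.98 in HDGF starvation, 2.97 in INTS13 control, 3.27 in INTS13 with HDGF depleted and 3.01 in INTS13 starvation, beside 2.86, 2.90, 3.11, 3.27 and 2.95 over all peaks of the same lists. A −log10 q of 3 or more was reached by 48.7% of the peaks near members and 41.7% of all peaks in HDGF control, 61.4% and 51.9% in HDGF starvation, and 39.1% and 57.9% in INTS13 control. With HDGF depleted the shares were 45.8% and 41.7%.

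In control cells 85 of 211 members (40.3%, exact 95% interval 33.6 to 47.2) had an HDGF peak, beside 15.1% of all other genes. In starved cells 44 members (20.9%, 15.6 to 27.0) had one, beside 16.0% of other genes. The share of members was thus lower in the starvation list and that of all other genes slightly higher, in lists of 106697 and 68155 peaks and with no replicate error for either. Intervals here and below cover counting error only, and members in 1 host or under 1 peak are not independent.

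Within control cells and within starved cells, INTS13 peaks lay at fewer members than HDGF peaks, and the INTS13 lists were also shorter. In control cells 20 members (9.48%, 5.89 to 14.3) had an INTS13 peak, beside 4.17% of other genes. After HDGF depletion 49 members (23.2%, 17.7 to 29.5) had one, beside 15.8% of other genes. In starved cells 7 members (3.32%, 1.34 to 6.72) had one, beside 4.78% of other genes, so that INTS13 in starvation was the list in which the members' share was below that of other genes, with an interval that spans it.

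**Figure D1:**
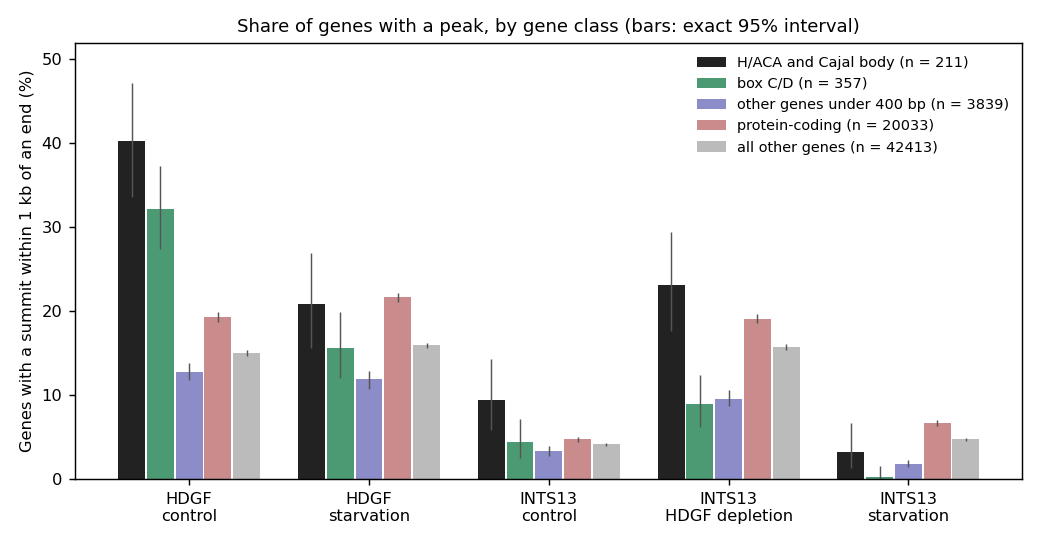
Bars give the percentage of genes with a summit within 1 kb of either end, for 5 classes of genes in each of the 5 peak lists, and vertical lines the exact 95% interval. The share of H/ACA and Cajal body RNA genes was 40.3% for HDGF in control cells and 20.9% in starvation, and all other genes stood at 15.1% and 16.0%.

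Box C/D genes are the other large class of small nucleolar RNA genes. Of 357 SNORD genes, 32.2% had an HDGF peak in control cells and 15.7% in starvation, and 4.48%, 8.96% and 0.280% had an INTS13 peak in the control, depletion and starvation lists. Without the SNORD112 to SNORD116 families, which are long arrays at imprinted loci, the 5 shares over 238 genes were 48.3%, 23.5%, 6.72%, 13.4% and 0.420%, in the order of HDGF control and starvation and INTS13 control, HDGF depletion and starvation. Other genes shorter than 400 bp were at 12.8%, 11.9%, 3.39%, 9.61% and 1.88% in the same order. Protein-coding genes were at 19.3%, 21.7%, 4.77%, 19.1% and 6.71%. In HDGF control the members' 40.3% lay between the 32.2% (27.4 to 37.3) of all box C/D genes and the 48.3% (41.8 to 54.9) without those families. For INTS13 with HDGF depleted the members' 23.2% was above both box C/D values, and the interval of the second, 9.38 to 18.4, overlapped that of the members. No test of these differences was made.

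Of the members, 97 had no peak in any list, 62 had one in 1 list, 24 in 2 lists, 18 in 3, 9 in 4 and 1 in all 5. Other genes were not counted by number of lists, so these counts have no background and describe the members only. SNORA and SCARNA genes differed little in HDGF control, with 73 of 182 and 12 of 29. In HDGF starvation the counts were 40 and 4, in INTS13 control 17 and 3, after HDGF depletion 41 and 8, and in INTS13 starvation 7 and 0.

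**Figure D2:**
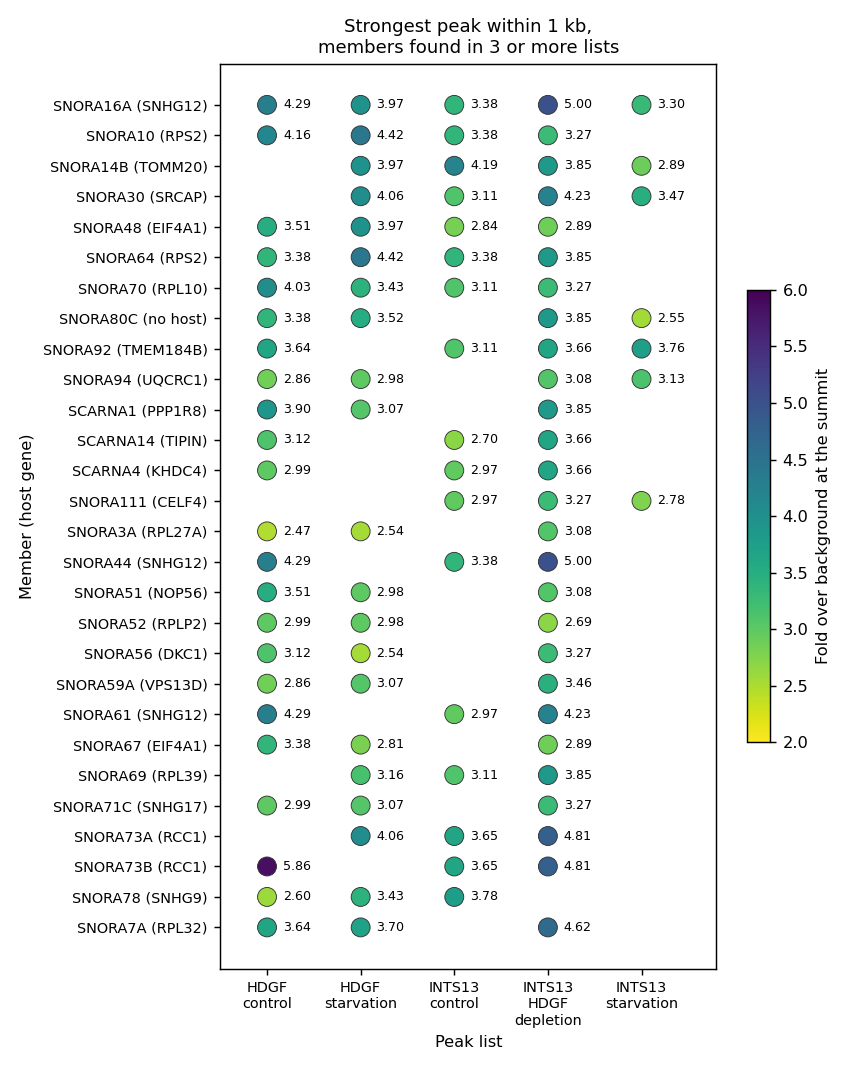
Circles show the 28 members found in 3 or more lists, 1 row each with the host gene in parentheses, against the 5 peak lists, and colour and number give the fold at the summit of the strongest peak within 1 kb. Only SNORA16A has a circle in all 5 columns, and the highest value is 5.86 for SNORA73B in HDGF control.

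Most peaks lay inside the hosts and away from their ends. Ends here are the outer bounds of the gene, and a start of transcription can lie further in. The SNHG12 promoter window shown above lies inside its bounds, and the SNORA16A peaks that reach it count as interior. Interior therefore does not mean away from every promoter. Of the 85 members with an HDGF peak in control cells, 16 (18.8%) had a summit within 1 kb of an end of the host, and for 70 the strongest peak lay in the interior of the host. In HDGF starvation 13 of 44 had a peak at a host end, in INTS13 control 4 of 20, after HDGF depletion 10 of 49 and in INTS13 starvation 1 of 7. Of the 211 members 24 lie within 1 kb of a host end and 140 lie more than 2 kb from it, and a summit within 1 kb of those 140 cannot lie within 1 kb of a host end.

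Members near a host end more often had an HDGF peak than members deep inside a host. In control cells the share was 58.3% of 24 members up to 1 kb from the nearest host end, 75.0% of 28 at 1 to 2 kb, 54.5% of 44 at 2 to 5 kb, 37.7% of 53 at 5 to 20 kb and 6.98% of 43 beyond 20 kb. By host length, 68.4% of those in hosts up to 5 kb had an HDGF peak in control cells, 57.6% in hosts of 5 to 20 kb, 41.9% in hosts of 20 to 100 kb and 11.1% in longer hosts. Box C/D genes stood at 74.4% at 1 to 2 kb, 61.2% at 2 to 5 kb and 7.48% beyond 20 kb.

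**Figure D3:**
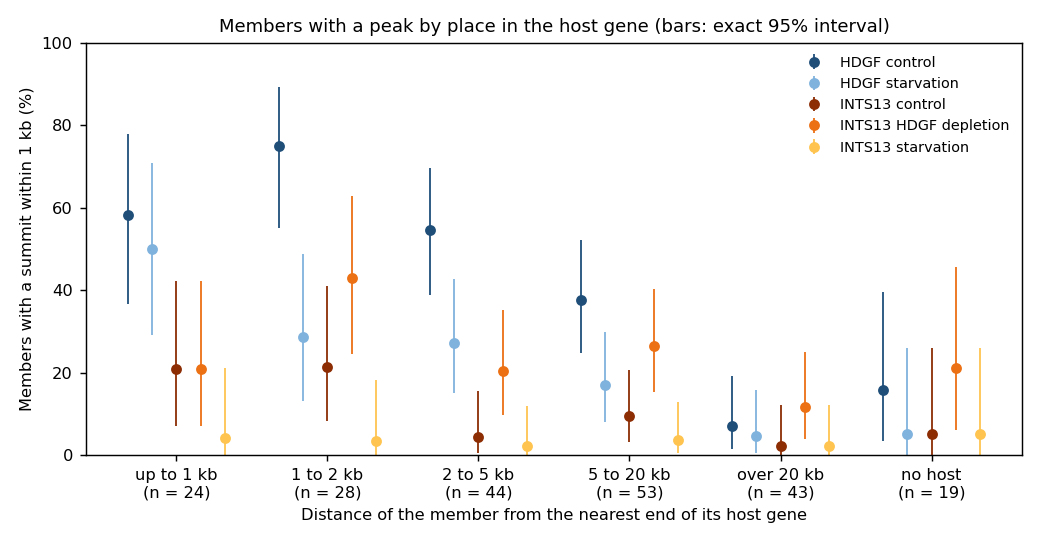
Points give the percentage of members with a summit within 1 kb, by distance of the member from the nearest end of its host, for the 5 peak lists, with exact 95% intervals. HDGF in control cells stands at 75.0% at 1 to 2 kb and at 6.98% beyond 20 kb.

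The position of summits around the members differed from list to list. Around the centre of the members HDGF control summits numbered 30.8 per 100 genes in the first 500 bp on either side, 23.7 in the next 500 bp and 21.3 at 4.5 to 5 kb. INTS13 after HDGF depletion had 14.2 in the first 500 bp and 11.8 at 4.5 to 5 kb, INTS13 control 7.11 and 3.32, and HDGF starvation 13.7 and 10.9. The bins between did not fall steadily. HDGF control was at 28.9 at 1000 to 1500 bp. HDGF starvation and INTS13 after HDGF depletion were highest away from the members, with 16.1 and 15.6 at 2000 to 2500 bp. The summit lay on the RNA gene for 5 of 85 members in HDGF control, 10 of 44 in HDGF starvation, 4 of 20 in INTS13 control, 6 of 49 after HDGF depletion and 0 of 7 in INTS13 starvation. The median distance from the gene to the nearest summit inside the window was between 237 bp (INTS13 control) and 539 bp (INTS13 starvation). A peak covered at least 1 base of the RNA gene for 59 members in HDGF control, 29 in HDGF starvation, 10 in INTS13 control, 20 after HDGF depletion and 1 in INTS13 starvation.

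**Figure D4:**
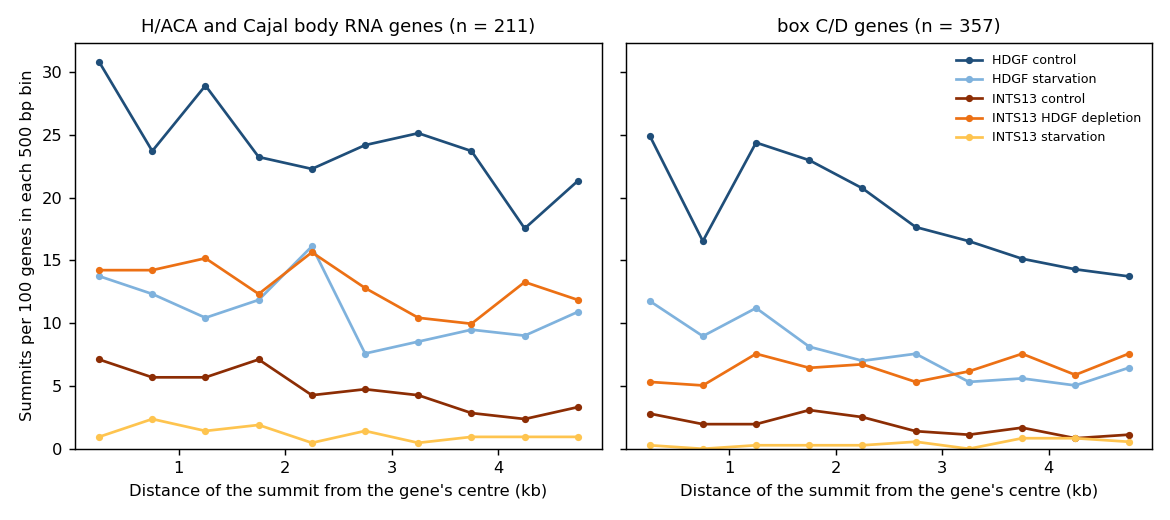
Lines give the number of summits per 100 genes in bins of 500 bp by distance from the gene's centre, both sides together, for the members (left) and box C/D genes (right) in the 5 lists. HDGF control stands at 30.8 summits per 100 members in the first bin and 21.3 in the last, with 28.9 at 1000 to 1500 bp. HDGF starvation stands at 13.7 and 10.9 and is highest, at 16.1, at 2000 to 2500 bp.

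The window is short, and for HDGF in control cells the nearest gene outside it, SNORA57, was at 1005 bp while SNORA16A was counted at 995 bp. In the other lists the farthest gene inside and the nearest outside were SNORA3A at 999 bp and SNORA80D at 1041 bp (HDGF starvation), SNORA92 at 989 bp and SNORA80C at 1180 bp (INTS13 control), SNORA74B at 977 bp and SNORA65 at 1054 bp (HDGF depletion), and SNORA80C at 934 bp and SNORA44 at 1080 bp (INTS13 starvation).

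Inside the hosts, away from both ends, summits were counted near the members and in the rest of the interior, pooled over hosts. In hosts over 20 kb, HDGF control had 1.73 summits per 10 kb within 1 kb of a member, 0.704 in the rest of the interior and 0.556 in the interiors of other protein-coding genes of that length. In hosts up to 20 kb the values were 4.47, 2.93 and 1.14, so that short hosts were rich in HDGF summits throughout. HDGF starvation had 0.593 near members and 0.370 in the rest of the long hosts, and 2.36 and 1.75 in the short ones. INTS13 control in the long hosts had 0.501 near members, 0.110 in the rest and 0.0992 in other genes, and INTS13 after HDGF depletion 1.19, 0.511 and 0.422. In the short hosts INTS13 after HDGF depletion had 1.26 near members and 1.50 in the rest, the reverse order.

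In the pooled values the rest of the interior is weighted to the longest hosts, which have the fewest summits per 10 kb. Summits near members were therefore also set beside the number that each host's own density in the rest of its interior would give, a comparison added after the data were seen. In 99 hosts over 20 kb, 38 HDGF control summits lay near members, beside 36.1 at the hosts' own densities, and 13 HDGF starvation summits, beside 14.3. In 52 hosts up to 20 kb the numbers were 50 beside 48.6 and 26 beside 15.5. For INTS13 in the long hosts they were 11 beside 6.63 in control, 26 beside 21.9 with HDGF depleted and 4 beside 3.28 in starvation. In the short hosts they were 4 beside 3.17, 13 beside 18.5 and 1 beside 0.621 in the same order. Within the same hosts HDGF control summits were thus about as dense near members as in the rest of the interior, unlike in the pooled values.

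**Figure D5:**
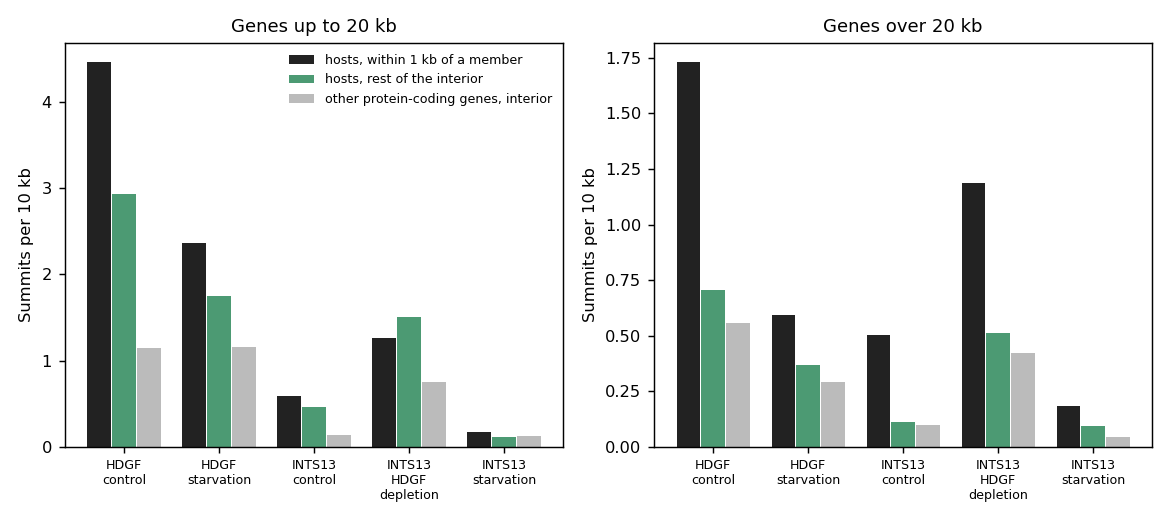
Bars give summits per 10 kb in gene interiors, within 1 kb of a member, in the rest of the host interior, and in other protein-coding genes, for genes up to 20 kb (left) and over 20 kb (right), with separate vertical scales. HDGF control in long hosts stands at 1.73 near members and 0.704 in the rest, and INTS13 after HDGF depletion in short hosts at 1.26 and 1.50.

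MicroRNA genes inside hosts, more than 2 kb from a host end, gave a comparison at the same kind of place. In hosts over 20 kb, 26.5% of 98 members, 15.7% of 204 box C/D genes and 11.5% of 1025 microRNA genes had an HDGF peak in control cells, and 10.2%, 4.41% and 14.0% in starvation. In hosts up to 20 kb the control shares were 50.0%, 59.5% and 22.1% and the starvation shares 31.0%, 35.7% and 38.3%. Both classes of small nucleolar RNA genes thus had a lower HDGF share in starvation at these places, and microRNA genes a higher one. These 2 comparison classes were added after the data were seen.

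The hosts were also counted by peaks at their own ends. An HDGF peak in control cells lay within 1 kb of an end of 66 of 158 hosts (41.8%, 34.0 to 49.9), beside 19.1% of other protein-coding genes. In HDGF starvation 43 hosts (27.2%, 20.4 to 34.9) had one, beside 21.6%, which lies inside the interval. For INTS13 the counts were 20 hosts (12.7%, 7.91 to 18.9) in control, beside 4.72%, and 52 (32.9%, 25.7 to 40.8) after HDGF depletion, beside 19.0%. In INTS13 starvation 16 hosts (10.1%, 5.90 to 15.9) had one, beside 6.68%, which again lies inside the interval. These differences were not tested.

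Members in genes of ribosomal proteins were the most often marked by HDGF. Of 18 such members 16 had an HDGF peak in control cells and 10 in starvation, and 4, 7 and 0 had an INTS13 peak in the control, depletion and starvation lists. SNORA70 in RPL10, on chromosome X, had HDGF folds of 4.03 in control and 3.43 in starvation and INTS13 folds of 3.11 in control and 3.27 after HDGF depletion. SNORA10, in RPS2 on chromosome 16, had HDGF folds of 4.16 and 4.42 and INTS13 folds of 3.38 and 3.27 in the same order. SNORA64, in another intron of RPS2, had 3.38 and 4.42, then 3.38 and 3.85. Both genes share an HDGF control peak, chr16:1962814-1963936, the INTS13 control peak, chr16:1962942-1963565, and the HDGF starvation peak, so they are 1 region and not 2 observations. None of these 3 members had an INTS13 peak in starvation.

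SNORA7A in RPL32 had an HDGF peak in both conditions, with folds of 3.64 in control and 3.70 in starvation, and an INTS13 peak after HDGF depletion only, with a fold of 4.62. SNORA33 in RPS12 had HDGF folds of 4.29 in control and 2.81 in starvation and no INTS13 peak in any list. SNORA66 in RPL5 had an HDGF peak in control cells alone, with a fold of 3.77. The members in RPL23 (SNORA21 and SNORA21B) and in RPSA (SNORA6 and SNORA62) likewise had HDGF peaks in control cells only, with folds between 2.73 and 3.12.

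SNORA16A in SNHG12, at chr1:28580920-28581053, was the 1 member with a peak in all 5 lists, with folds of 4.29 for HDGF in control, 3.97 for HDGF in starvation, and, for INTS13, 3.38 in control, 5.00 without HDGF and 3.30 in starvation. Its neighbours SNORA44 and SNORA61 had peaks in the HDGF control, INTS13 control and HDGF depletion lists. They share the HDGF control peak with SNORA16A, chr1:28576891-28581622, so the 3 genes are 1 region and not 3 observations. The HDGF starvation peak, chr1:28579565-28582486, covers SNORA44 and SNORA61 as well, but its summit lies over 1 kb from them, and by the summit rule they count as lost.

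SNORA73A and SNORA73B, the U17 RNAs needed for early steps of ribosomal RNA processing, lie in RCC1 and also inside the overlapping non-coding gene SNHG3. SNORA73B had the strongest peak of any member in any list, with an HDGF fold of 5.86 and a −log10 q of 17.0 in control cells (chr1:28506242-28513703). INTS13 folds at both genes were 3.65 in control and 4.81 after HDGF depletion. In starvation an HDGF peak of fold 4.06 (chr1:28506843-28511423) had its summit at SNORA73A and covered both genes, so that SNORA73B counts as lost and SNORA73A as gained although both peaks cover both genes. The copies are close in sequence and reads between them may be uncertain, as may those of the SNORA71 and SCARNA26 copies.

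Other lncRNA and translation hosts followed. Of 18 members in snoRNA host lncRNAs, 8 and 7 had an HDGF peak in control and starvation, and 5, 4 and 1 an INTS13 peak in the control, depletion and starvation lists. SNORA78 in SNHG9 had HDGF folds of 2.60 in control and 3.43 in starvation and an INTS13 fold of 3.78 in control alone. That INTS13 summit lay 626 bp from SNORA78, outside SNHG9 and inside the neighbouring gene RPS2. SNORA48, in the gene of the helicase EIF4A1, had HDGF folds of 3.51 and 3.97 and INTS13 folds of 2.84 in control and 2.89 after HDGF depletion. Of the 11 members in genes of translation factors, 6 had an HDGF peak in control cells and 2 in starvation, and all 4 members in EIF4A2 had no peak in any list.

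In starved cells 27 of the 85 members kept an HDGF peak (31.8%, 22.1 to 42.8), beside 49.0% of other genes that had one in control cells. The other 58 were lost, meaning that no summit lay within 1 kb in starvation, and 17 members without an HDGF peak in control gained one (13.5%, beside 10.1% of other genes). Box C/D genes kept 43 of 115 (37.4%, 28.5 to 46.9). All 6 members in TAF1D, which encodes a subunit of the RNA polymerase I selectivity factor, were lost, with control folds between 2.86 and 3.12. SNORA1, SNORA8 and SNORA18 share the control peak chr11:93732032-93732991, and SNORA25 and SNORA32 share chr11:93730577-93730833. These are therefore not 6 separate observations. The 3 members in KANSL2, a subunit gene of the NSL acetyltransferase complex, were lost too, with control folds between 2.34 and 2.60.

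Part of this turnover is a shift of the summit. Of the 58 lost members 8 still had some base of a starvation peak within 1 kb, among them SNORA44, SNORA61 and SNORA73B, and of the 17 gained members 9 had some base of a control peak there, among them SNORA14B, SNORA30 and SNORA73A. Counted by any base of the peak, 45 members were kept, 52 lost and 8 gained. Of the 27 members kept by summit, 22 had control and starvation peaks that overlapped. With each list reduced to its 15639 strongest peaks, 23 members (10.9%, beside 2.92% of other genes) had an HDGF peak in control and 13 (6.16%, beside 4.94%) in starvation.

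After HDGF depletion 18 of the 20 members with an INTS13 peak in control kept one (90.0%, 68.3 to 98.8), beside 78.7% of other genes. The 2 lost members were SNORA103 in GAS5 and SNORA78 in SNHG9. The control peak counted for SNORA78, chr16:1964185-1964815, lay outside SNHG9 and inside the neighbouring gene RPS2. After HDGF depletion RPS2 held a peak at chr16:1963517-1964003, counted for SNORA64, with its summit outside the window of SNORA78. Another 31 members gained a peak (16.2%, beside 13% of other genes), in a list with 106024 peaks beside 31249 in control. Box C/D genes kept 7 of 16 (43.8%, 19.8 to 70.1), and the difference from the members was not tested. Of the 18 kept members, 11 had overlapping peaks in both lists.

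The highest fold among the gained members was 5.39 at SNORA91, in C2CD2 on chromosome 21, followed by 4.62 at SNORA7A in RPL32 and 4.43 at SNORA98 in UTRN, the gene of the dystrophin relative utrophin. SNORA91 and SNORA98 had no peak in any other list, and SNORA7A had HDGF peaks in both conditions. With lists of equal length, 8 members (3.79%, beside 2.57% of other genes) had an INTS13 peak in control and 13 (6.16%, beside 3.01%) after HDGF depletion.

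In starved cells 5 of the 20 members with an INTS13 control peak kept one (25.0%, 8.66 to 49.1), beside 47.1% of other genes, and 2 members gained one (1.05%, beside 2.94%). None of 16 box C/D genes kept theirs, which allows a share of up to 20.6% (exact 95% limit). The kept members were SNORA16A, SNORA30, SNORA14B, SNORA92 and SNORA111, and 4 of the 5 had overlapping peaks. The antibody differed between these lists, as stated above.

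SNORA30, in the gene of the chromatin remodeller SRCAP, had INTS13 folds of 3.11 in control, 4.23 with HDGF depleted and 3.47 in starvation, and an HDGF fold of 4.06 in starvation. SNORA14B, 900 bp from the start of TOMM20, had INTS13 folds of 4.19, 3.85 and 2.89 in the same order and an HDGF fold of 3.97 in starvation. SNORA92 in TMEM184B had INTS13 folds of 3.11, 3.66 and 3.76 and an HDGF fold of 3.64 in control. SNORA111 in CELF4, an RNA-binding protein gene, had INTS13 folds of 2.97, 3.27 and 2.78 and no HDGF peak.

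The 2 members that gained an INTS13 peak in starvation had HDGF peaks in both conditions. SNORA94, in UQCRC1, a gene of respiratory complex III, had an INTS13 fold of 3.13 in starvation and 3.08 after HDGF depletion, and HDGF folds of 2.86 in control and 2.98 in starvation. SNORA80C, which has no host and lies 211 bp from ZNF771, had INTS13 folds of 2.55 in starvation and 3.85 after HDGF depletion, and HDGF folds of 3.38 and 3.52. Its INTS13 summit in starvation lay 934 bp away.

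Both proteins had a peak at 12 members in control cells, which is 60.0% of the members with INTS13 and 14.1% of those with HDGF. Of other genes 2.54% had both, which is 60.9% of those with INTS13 and 16.9% of those with HDGF. At 11 of the 12 the HDGF and INTS13 peaks overlapped. In starvation both were found at 5 members, 71.4% of those with INTS13 and 11.4% of those with HDGF, and all 5 overlapped. Of other genes 3.19% had both, 66.9% and 20.0% in the same order. The share of INTS13 members that also had HDGF was therefore close to the background in both conditions. Overlap of peaks was not counted at other genes, either here or for the kept members above, so those overlap counts have no background.

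INTS13 peaks in control cells were also counted by chromosome, with 1, 13, 22 and X set apart as dense in peaks. Of the 20 members 12 lay on chromosomes 1, 13, 22 and X, and so did 1053 of the 1767 other genes with a peak. Of the 12, SNORA69 and SNORA70 lay on X and SNORA92 on 22. The rest of the 12 lay on chromosome 1, several of them in SNHG12 and RCC1. Outside the set, SNORA10, SNORA64, SNORA30 and SNORA78 lay on chromosome 16. On chromosomes 1, 13, 22 and X, 24.5% of 49 members and 14.1% of other genes had a peak. Because the set was picked as dense in peaks, higher shares on it follow in part from that choice. On the other chromosomes 8 members (4.94%) had one, beside 2.04% of other genes. HDGF control on those other chromosomes was at 40.1% of members and 12.3% of other genes, and HDGF starvation at 18.5% and 13.1%.

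Among Cajal body RNA genes, 17 of 29 had a peak in at least 1 list, a count for which no share of other genes was computed. SCARNA1, in PPP1R8, a gene of a phosphatase regulator, had HDGF folds of 3.90 in control and 3.07 in starvation and an INTS13 fold of 3.85 after HDGF depletion. SCARNA4 in KHDC4 had an HDGF fold of 2.99 in control and INTS13 folds of 2.97 in control and 3.66 after HDGF depletion. SCARNA14, in the replication fork gene TIPIN, had 3.12, 2.70 and 3.66 in the same lists. SCARNA26A in YY1AP1 had INTS13 folds of 2.97 in control and 4.81 after HDGF depletion and no HDGF peak, and its copy SCARNA26B in GON4L had an HDGF fold of 2.81 in starvation and an INTS13 fold of 3.08 after HDGF depletion. SCARNA4, SCARNA14 and SCARNA26A were the 3 SCARNA genes with INTS13 in control cells, and no SCARNA gene had INTS13 in starvation.

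HDGF was kept in starvation at SCARNA1 and at SCARNA16 in SEC14L1, with folds of 3.12 in control and 2.81 in starvation at the latter. It was lost at the other 10 of 12, which include SCARNA12 in the prohibitin gene PHB2, with a control fold of 3.12 and an INTS13 fold of 2.89 after HDGF depletion. Another 7 of them had no peak in any other list: SCARNA15, SCARNA18B, SCARNA20, SCARNA27, SCARNA28, SCARNA6 and SCARNA8, with control folds between 2.47 and 3.25. SCARNA11, in the remodeller gene CHD4, had an HDGF peak in starvation alone (2.54), and SCARNA10, in the condensin gene NCAPD2, an INTS13 peak after HDGF depletion alone (2.89).

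Of 19 members without a host, 3 had an HDGF peak in control and 1 in starvation, and 1, 4 and 1 an INTS13 peak in the control, depletion and starvation lists. SCARNA2, which is transcribed from its own promoter, is one of them and lies at chr1:109100193-109100612, 3259 bp from TMEM167B. It had peaks in the HDGF depletion list of INTS13 alone, with folds of 3.27 and 3.08. Of 8 RNA genes with their own promoter outside the rule (TERC, SNORD3A, SNORD3B-1, SNORD3B-2, SNORD3C, SNORD3D, SNORD118 and SNORD13), 2 had a peak in a single list, INTS13 in control. SNORD3B-2, a copy of U3, had a fold of 5.00 and a −log10 q of 11.6 there, and SNORD118, the U8 RNA, a fold of 2.97. U3 copies are near-identical, so reads at SNORD3B-2 may belong to another copy.

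Of 21 genes of proteins that act on these RNAs, 7 (33.3%) had a peak in HDGF control and 5 (23.8%) in HDGF starvation, beside 19.3% and 21.7% of protein-coding genes. For INTS13 the counts were 1 (4.76%) in control, 5 (23.8%) with HDGF depleted and 1 (4.76%) in starvation, beside 4.77%, 19.1% and 6.71%. Of 6 H/ACA particle genes, NHP2 had one in all 5 lists, with folds of 3.38 in HDGF control, 3.34 in HDGF starvation, 3.24 in INTS13 control, 3.85 after HDGF depletion and 2.78 in INTS13 starvation. DKC1, the pseudouridine synthase gene and host of SNORA36A and SNORA56, had one for HDGF in starvation (2.54) and for INTS13 after HDGF depletion (3.27). GAR1 had one in HDGF control (2.99) and the assembly factor gene SHQ1 one after HDGF depletion (3.27), and NOP10 and NAF1 had none. Of 11 Cajal body and assembly genes, 4 had an HDGF peak in control (NOLC1, PHAX, TGS1 and WRAP53), 2 in starvation (USPL1 and WRAP53) and 2 an INTS13 peak after HDGF depletion (COIL and TGS1), with none in INTS13 control or starvation. Of 4 genes of snoRNA end processing, TOE1 alone had peaks, with HDGF folds of 3.90 in control and 2.45 in starvation. Folds given for a gene need not come from the same place. The TOE1 peaks lay at chr1:45340956-45341314 in control and chr1:45344647-45344898 in starvation. The HDGF peaks of WRAP53 also lay apart. The NHP2 peak after HDGF depletion, chr5:178153051-178153377, overlapped none of the other NHP2 peaks.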

How the data were processed

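The build was hg38 and MACS2, Bowtie, Picard, Trimmomatic and FastQC were used, per the submitters' processing notes. Apart from 0.05 in the deposited peak names, settings, versions, replicate pooling and input use are not given in the sources. The deposited narrowPeak lists hold the authors' score, fold enrichment (a ratio), −log10 p and −log10 q values, and summit offset. The score was not used.

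From these were computed, with python 3.11.15, pandas 2.3.3, numpy 2.4.6 and scipy 1.17.1, the counts of genes with a summit within 1 kb of either end, and exact Clopper-Pearson 95% intervals. Genes and sequences came from RefSeq GRCh38 tables. A host was the gene holding the whole member, protein-coding first, then the shortest; 22 members lie in a further gene. Peak lists carry no strand, so host and antisense genes cannot be told apart. Named members were all SCARNA genes with a peak, the 8 SNORA genes with the highest −log10 q in each list, and SNORA genes in all 3 INTS13 lists. Others were named after their values were seen. Members and lists were chosen with earlier results of these data known. The counting was tested on simulated peaks. Input samples and libraries' read totals were not analysed here. Alternatives were other windows, thresholds, list lengths, chromosomes and 1 count per host.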

Additional observations from a re-analysis of the deposited data

How the results depend on the processing

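Of 103 recomputed counts 39 stayed within 1.5 times the reported one and 64 did not, and depth and replicate spread could not be assessed because each group had 1 list. Leaving out a replicate was not possible for the same reason. No paired analysis was possible because the deposited lists carry no replicate. In the sentences below, counts of members with a peak come in the order HDGF control, HDGF starvation, INTS13 control, INTS13 after HDGF depletion and INTS13 starvation. Counts of members kept follow the order HDGF starvation, INTS13 after HDGF depletion, INTS13 starvation. By construction a wider window raises counts, and a narrower window or stricter threshold lowers them.

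With a window of 500 bp the counts with a peak were 67, 30, 13, 36 and 2, those at a host end 11, 5, 1, 8 and 0, those kept 14, 9 and 1, and both proteins were found at 5 members in control and 2 in starvation. Members with a peak were then 31.8%, 14.2%, 6.16%, 17.1% and 0.948%, beside 8.63%, 10.0%, 2.87%, 9.90% and 3.63% of other genes. With 2500 bp the counts were 110, 70, 30, 77 and 11 with a peak, 32, 23, 13, 18 and 3 at a host end, 56, 27 and 10 kept, and 27 and 10 with both proteins. The shares with a peak were 52.1%, 33.2%, 14.2%, 36.5% and 5.21%, beside 26.8%, 23.4%, 6.34%, 25.9% and 6.40% of other genes. Counting any base of a peak gave 97, 53, 20, 55 and 8 with a peak, 35, 20, 8, 16 and 3 at a host end, 45, 18 and 6 kept, and 17 and 7 with both proteins. Restricting to a −log10 q of 3 or more gave 51, 28, 12, 23 and 4 with a peak, 10, 8, 3, 5 and 0 at a host end, 13, 9 and 3 kept, and 7 and 3 with both proteins. At this threshold 24.2%, 13.3%, 5.69%, 10.9% and 1.90% of members had a peak, beside 7.47%, 9.74%, 2.88%, 7.57% and 3.14% of other genes. Lists of equal length gave 23, 13, 8, 13 and 7 with a peak, 3, 5, 2, 3 and 1 at a host end, 8, 5 and 2 kept, and 5 and 4 with both proteins. Those with a peak made 10.9%, 6.16%, 3.79%, 6.16% and 3.32% of members, beside 2.92%, 4.94%, 2.57%, 3.01% and 4.78% of other genes. Without chromosomes 1, 13, 22 and X the counts were 65, 30, 8, 29 and 4 with a peak, 14, 9, 1, 7 and 0 at a host end, 20, 7 and 2 kept, and 5 and 3 with both proteins. This left 162 members, of which 40.1%, 18.5%, 4.94%, 17.9% and 2.47% had a peak. Other genes there were at 12.3%, 13.1%, 2.04%, 12.2% and 3.28%. With 1 count per host the counts were 64, 39, 16, 42 and 7 with a peak, 25, 14 and 5 kept, and 9 and 5 with both proteins. Requiring overlapping peaks left 22, 11 and 4 kept. In each of these settings that recounts peaks, more members had an HDGF peak in control than in starvation, and more had an INTS13 peak after HDGF depletion than in control. Except with lists of equal length, the list with more members was also the longer one. Where shares of other genes were computed, their INTS13 share was likewise higher after HDGF depletion than in control. Their HDGF share was lower in control than in starvation in these settings, except at 2500 bp. Shares of other genes were not computed for any base of a peak or 1 count per host.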
